A study of Homo sapiens with 10 samples.

Results

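The comparison described here set HAP1 clones that lacked the DNA glycosylase OGG1 against HAP1 clones that had it. Libraries were assigned to the sets by their genotype labels. The OGG1-lacking set held 4 RNA-seq libraries, OGG1 knockout clones 1 and 22 and double knockout (DKO) clones 4 and 14, and the OGG1-proficient set held 4 libraries, wild type (WT) clones 2 and 11 and MUTYH knockout clones 7 and 8. These are 8 of the 10 libraries of the series, and the other 2 came from H2O2-treated WT clones and were not used, since no OGG1-lacking clone was treated. HAP1 is a near-haploid adherent human line derived from the chronic myeloid leukaemia line KBM-7, so that editing a single copy disables most genes. All 8 cultures were untreated, and each library was 1 clone. DKO clones also lacked MUTYH, as did the MUTYH knockout clones, so each set held 2 libraries with and 2 without MUTYH, and MUTYH status entered the fit as a covariate. The study's clone list derives both DKO clones from its second OGG1 knockout clone, which by number is clone 22. The OGG1-lacking set therefore held 2 lineages, clone 1 alone and clone 22 with its DKO derivatives, and p-values that treat 4 libraries as independent do not carry this.

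OGG1 starts base excision repair by cutting out 8-oxoguanine, the most common oxidized base of DNA, where it pairs with cytosine. MUTYH acts on the same lesion after replication, when it removes an adenine that was put in opposite 8-oxoguanine. 8-oxoguanine and OGG1 have also been linked to transcription, since the base forms readily in guanine-rich promoters and OGG1 can bind there. The question put to the RNA was which transcripts differ where OGG1 is missing, whether MUTYH is present or not.

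The sequence that defines the OGG1-lacking set is the guide used to edit OGG1, printed here in lower case with the adjoining PAM in capitals.

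OGG1 guide: gtacgatgccccatgcgcctGGG

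The guide of 20 bases matched chromosome 3 once, at chr3:9750311-9750330 of GRCh38, on the minus strand. It lies in the first exon of 11 annotated OGG1 transcripts and within the coding sequence of 10 of them, 25 to 44 bases from the start codon counted from its first base. A short frameshifting deletion at this place leaves the gene able to make RNA, so the level of OGG1 RNA is only a partial check of the labels.

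OGG1 (chr3:9749944-9788219, plus strand) was measured at 12.2 and 13.1 CPM (counts scaled to library size) in WT clones 2 and 11 and at 14.5 and 13.8 CPM in MUTYH knockout clones 7 and 8. In OGG1 knockout clones 1 and 22 it stood at 1.23 and 11.2 CPM, and in DKO clones 4 and 14 at 9.75 and 9.8 CPM. All 4 OGG1-lacking libraries were below all 4 OGG1-proficient ones, but clone 1 was far below the other three, which were close to the proficient range. The mean was 8.01 ± 4.57 CPM without OGG1 and 13.4 ± 0.966 CPM with it (SD, n = 4). An exact permutation test of the means, two-sided over 70 arrangements, gave p = 0.0286, the smallest this design allows, and 0.0858 after adjustment over 3 library measures. In the fit across all genes the log2 fold change was -0.77 ± 0.51 (SE), so OGG1 itself was not called. MUTYH, the partner glycosylase, differed by -0.09 ± 0.28 (log2 fold change). TADA3 and CAMK1, which overlap OGG1 on the opposite strand, differed by -0.04 ± 0.09 and -1.32 ± 0.71, and TOE1, which overlaps MUTYH, by -0.33 ± 0.21. None of these neighbours was called. The strand setting of the counting is not given in the sources used here, so reads of overlapping genes cannot be told apart.

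**Figure D1:**
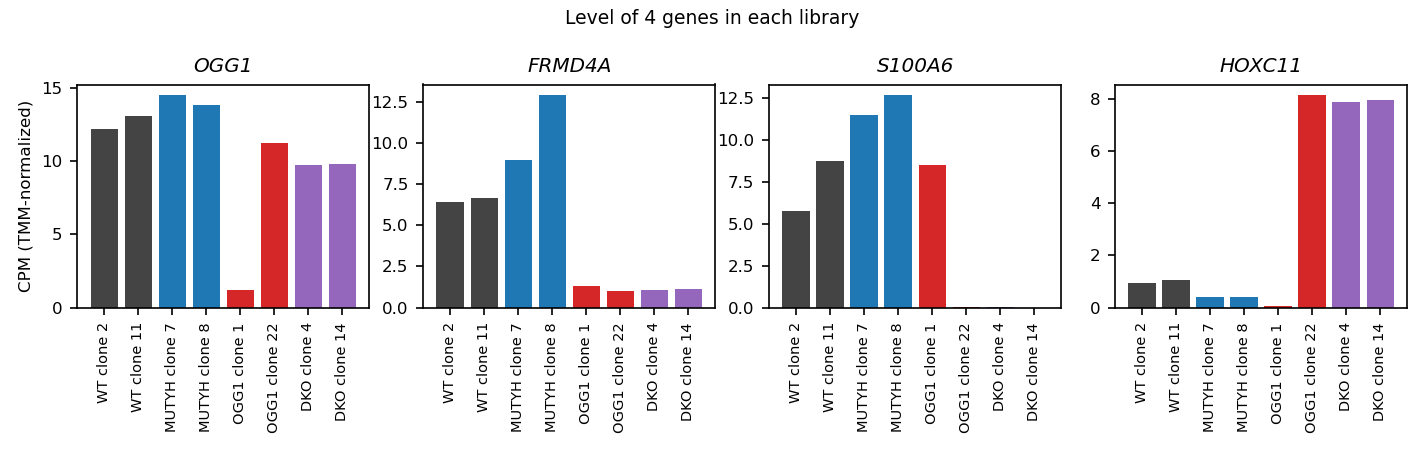
Bars give the TMM-normalized CPM (linear axis from 0) of OGG1, FRMD4A, S100A6 and HOXC11 in each of the 8 libraries, with WT in grey, MUTYH knockout in blue, OGG1 knockout in red and DKO in purple. FRMD4A was low in all 4 OGG1-lacking libraries, whereas S100A6 and HOXC11 separated OGG1 clone 22 and both DKO clones from OGG1 clone 1.

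Total counts were 22225091 to 22458937 per library, and 1 CPM was about 22.2 counts in the smallest. Mitochondrial genes took 5.67 ± 1.6% of the counts without OGG1 and 5 ± 0.964% with it (SD, n = 4), and the exact permutation test gave p = 0.543. The libraries were also split into 2 sides by the first principal component of their deviations from genotype means. WT clone 2, MUTYH clone 8, OGG1 clone 22 and DKO clone 14 were on side A. On side B were WT clone 11, MUTYH clone 7, OGG1 clone 1 and DKO clone 4. With 2 libraries per genotype the deviations are opposite, so each side holds 1 library of every genotype by construction. That component held 49.9% of the variance of these deviations. What the sides are is not given in the labels. Of 16 haematopoietic markers only 6 passed the filter on low counts, with a summed level of 65.5 to 105 CPM without OGG1 and 84.2 to 142 CPM with it. HAP1 cells grow as an adherent line, and the epithelial and mesenchymal markers passed in 11 of 14 cases, with sums of 703 to 859 CPM and 488 to 917 CPM.

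Loss of OGG1 went with few transcript differences that were shared by all 4 clones. Of 59453 genes in the table, 17881 passed the filter on low counts and were tested. A gene was called differentially expressed (DEG) when its unadjusted P was at most 0.05 and its log2 fold change lay beyond 1 in either direction. By this criterion, which is that of the study, 250 genes (1.4%) were DEGs, 175 (0.979%) higher and 75 (0.419%) lower without OGG1. An unadjusted P of at most 0.05 was found for 725 genes, or 4.05% of those tested. That share is below 0.05, the share that such a threshold passes where no gene differs. After Benjamini-Hochberg (BH) adjustment in edgeR 1 gene, FRMD4A, remained, while the Wald test of DESeq2 left 39 genes, 18 higher and 21 lower.

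Most DEGs were weakly expressed. The median level was 0.623 CPM among the 175 higher and 1.21 CPM among the 75 lower DEGs, against 16.6 CPM among all tested genes. In all, 63.4% of the higher and 42.7% of the lower DEGs had a mean under 1 CPM, against 17.1% of tested genes. A minimum of 10 counts in every library left 60 DEGs, 39 higher and 21 lower. Of the higher DEGs with an annotation entry 90.3% were protein coding, of the lower ones 83.1%, and of the tested genes 87.6%. Across all tested genes the median log2 fold change was 0.0026, and 50.5% of genes were above 0. The libraries of the 2 sets did not overlap in CPM for 585 genes (3.27%), 316 higher and 269 lower. Both criteria were met by 112 genes, 85 higher and 27 lower, of which 39 and 17 reached a mean of 1 CPM in either set. The genes described below come from the 12 of each direction with the smallest P among these. Beyond FRMD4A and INHBE, their BH adjusted p in edgeR was 0.814 to 0.995.

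**Figure D2:**
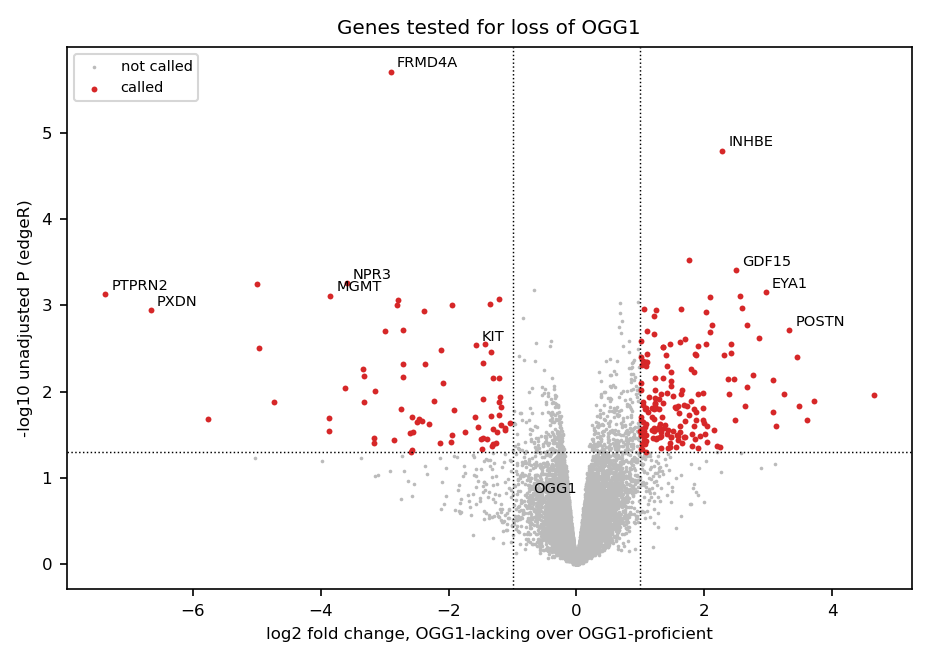
Each point is 1 of 17881 tested genes, with the log2 fold change of OGG1-lacking over OGG1-proficient libraries on the horizontal axis and -log10 of the unadjusted edgeR P on the vertical axis. The 250 DEGs are red, dotted lines mark the thresholds, and FRMD4A lies above all other genes while OGG1 is not called.

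FRMD4A, which codes for a FERM-domain scaffold protein of epithelial polarity, was the one gene past BH adjustment. It lies at chr10:13643706-14462142 on the minus strand and overlaps PRPF18, FRMD4A-AS1 and other genes on the opposite strand. Reads of these overlaps cannot be told apart here, since the strand setting is not given. Its level was 6.39 and 6.64 CPM in WT clones 2 and 11 and 8.94 and 12.9 CPM in MUTYH clones 7 and 8. Without OGG1 it was 1.28 and 1.02 CPM in OGG1 clones 1 and 22 and 1.04 and 1.14 CPM in DKO clones 4 and 14. Thus both lineages of the OGG1-lacking set fell to nearly the same level, and the sets were far apart. The means were 1.12 ± 0.119 CPM and 8.73 ± 3.04 CPM (SD, n = 4). The log2 fold change was -2.91 ± 0.25, which is 7.51-fold lower (BH adjusted p = 0.035 by edgeR's quasi-likelihood test). With the split of the libraries as a block the adjusted p in edgeR was 0.049. The split came from these same counts, so p-values with it as a block tend to be too small. FRMD4A was -2.5 in OGG1 knockout over WT and -3.32 in DKO over MUTYH knockout by log2 fold change. The gene stayed a DEG under all 18 alternatives, at -3.08 to -2.72. Its adjusted p in edgeR was 0.00404 to 0.957 over these, above 0.05 on each side of the split alone (0.28 on side A and 0.957 on side B) and when any library other than OGG1 clone 1 was left out (0.0741 without MUTYH clone 8 to 0.399 without DKO clone 14).

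INHBE (chr12:57452323-57459280), the inhibin beta E subunit of the TGF-beta family, is a target of the integrated stress response. It was at 0.311 and 0.401 CPM in the WT clones, 0.465 and 0.44 in the MUTYH clones, 1.28 and 1.64 in the OGG1 clones and 2.86 and 2.37 CPM in the DKO clones, each pair in the order of clones given above. Every OGG1-lacking library was above every proficient one, and both DKO clones were above both OGG1 clones. The log2 fold change was 2.28 ± 0.26 (BH adjusted p = 0.144 by edgeR, and 0.0822 to 0.957 over the alternatives in edgeR). GDF15 (chr19:18374731-18389176), a cytokine induced by cell stress and by p53, was at 0.444, 0.356, 0.558 and 0.484 CPM in the proficient libraries. Its level was 0.868 and 1.33 CPM in the OGG1 clones but 6.44 and 4.44 CPM in the DKO clones, so the difference was mostly in the DKO. GDF15 was higher by 2.49 ± 0.44 on the log2 scale, by 1.44 in the OGG1 knockout over WT and by 3.37 in DKO over the MUTYH knockout, and the difference between these was itself called (1.93 ± 0.57, BH adjusted p = 1).

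EYA1, a transcriptional coactivator with phosphatase activity, was at 1.2, 3.25, 0.279 and 1.41 CPM with OGG1 and at 11.6, 8.14, 10.9 and 14.2 CPM without. Its log2 fold change was 2.96 ± 0.57, and the sets do not overlap because the gene was chosen so. CREB3L1, a factor held in the endoplasmic reticulum membrane until it is cleaved, was higher by 1.1 ± 0.25, from 2.13 to 3.47 CPM with OGG1 to 4.06 to 6.77 CPM without. It was not called on side B alone, where its log2 fold change was 0.63 against 1.58 on side A, nor without OGG1 clone 22 (0.976).

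POSTN, the matrix protein periostin, was at 0.133, 1.38, 0.931 and 0.22 CPM with OGG1 and at 14.8, 3.45, 6.35 and 3.25 CPM without it. Its log2 fold change of 3.33 ± 0.75 had an adjusted p of 0.947 in edgeR. With the split as a block, which was taken from these same counts, it was 0.0763. EPCAM, an epithelial adhesion protein, was at 0.14 to 0.668 CPM with OGG1 and 1.23 to 2.99 CPM without (2.08 ± 0.47). PPL, the desmosomal linker periplakin, was at 3.06 to 4.81 CPM and 6.44 to 9.61 CPM (1.05 ± 0.22), and EPS8L2, an actin regulator, at 4.45 to 8.94 CPM and 10.3 to 21.5 CPM (1.21 ± 0.26). PPL lay so close to the threshold of fold change that it fell below it on side B alone (0.927) and without WT clone 2 (0.948), MUTYH clone 7 (0.976), OGG1 clone 22 (0.957) or DKO clone 4 (0.981). EPS8L2 overlaps TMEM80 on the same strand. Also in this set were HPCAL4, a neuronal calcium sensor (1.25 ± 0.26, and 0.974 on side B alone, just short of the call), FAM133A (1.63 ± 0.34) and the unnamed transcript AL035530.2 (1.21 ± 0.28), each separate between the sets.

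**Figure D3:**
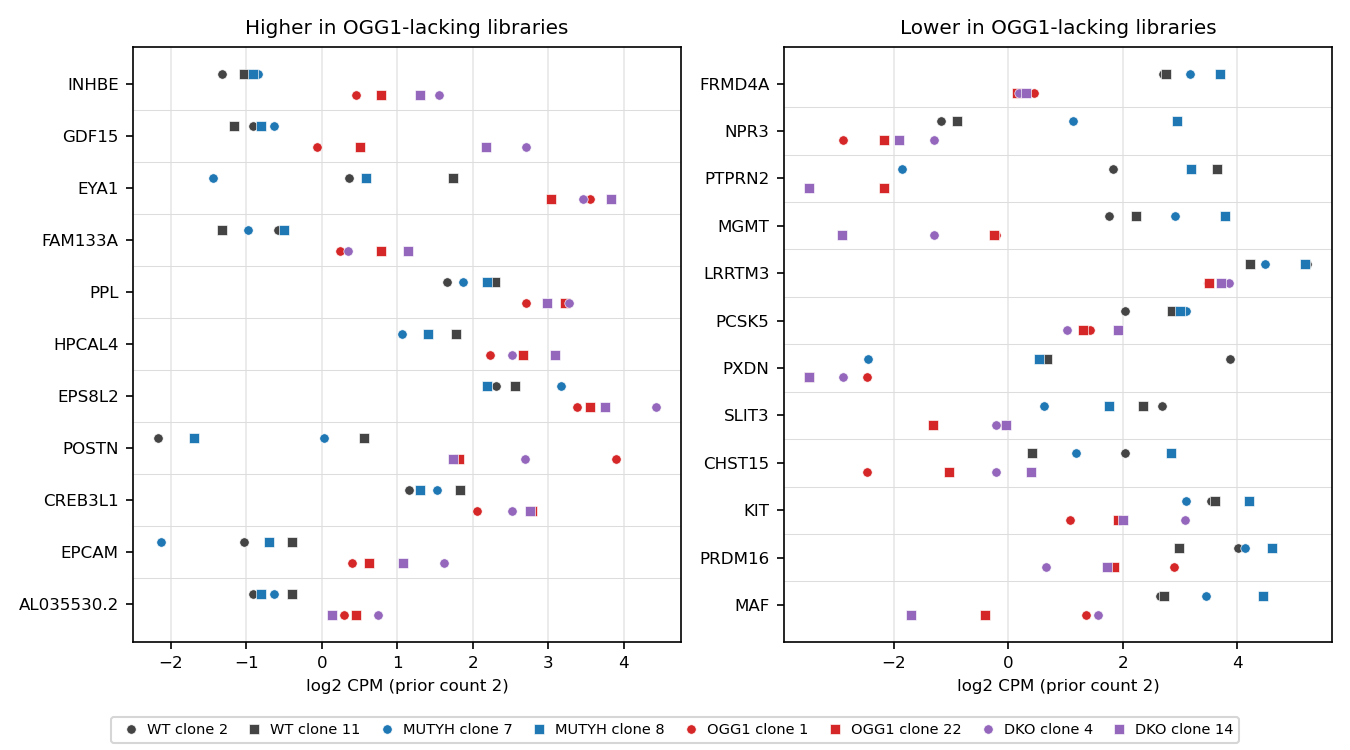
Log2 CPM (prior count 2) of the genes described in each direction, which have the smallest P among DEGs whose sets do not overlap; each gene has the OGG1-proficient libraries in the upper row and the OGG1-lacking ones in the lower, with colour for genotype and marker shape for clone. The sets do not overlap because the genes were chosen so, and the width of the proficient row differs widely between genes, from FRMD4A to PXDN.

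Among the genes lower without OGG1, MGMT was the one DNA repair gene. MGMT (chr10:129467190-129770983, plus strand) removes alkyl groups from guanine and is used up in doing so. Levels were 3.28 and 4.59 CPM in the WT clones, 7.45 and 13.6 in the MUTYH clones, 0.776 and 0.752 in the OGG1 clones and 0.317 and 0.044 CPM in the DKO clones, the last being 1 count. MGMT was thus highest without MUTYH alone and lowest without both glycosylases. The log2 fold change was -3.85 ± 0.75 (BH adjusted p = 0.814 by edgeR), or 14.4-fold lower, and -2.36 within the MUTYH-proficient and -5.83 within the MUTYH-lacking clones. The difference of these differences was called (-3.48 ± 0.88, BH adjusted p = 1). DESeq2 gave MGMT an adjusted p of 1.84e-05.

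KIT (chr4:54657267-54740783), the receptor of stem cell factor, was at 11.6, 12.1, 8.47 and 18.4 CPM with OGG1 and at 2.01, 3.67, 8.44 and 3.91 CPM without it. DKO clone 4 was just below the lowest proficient library, and the other OGG1-lacking clones were well below. Its log2 fold change was -1.58 ± 0.38, and on side B alone it was not called (-1.23). LRRTM3, a synaptic adhesion protein, went from 18.6 to 37.1 CPM with OGG1 to 11.1 to 14.3 CPM without (-1.21 ± 0.24), though on side B alone the log2 fold change was -0.685, against -1.59 on side A, and without WT clone 2 it was -0.957. LRRTM3 lies within CTNNA3 on the opposite strand. NPR3, the clearance receptor of natriuretic peptides, was at 0.355, 0.445, 2.09 and 7.62 CPM with OGG1 and at 0.0457 to 0.317 CPM without (-3.6 ± 0.67).

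Of the 75 lower DEGs, 7 had at most 3 counts in each OGG1-lacking library. Of the 175 higher DEGs, 9 had at most 3 counts in each OGG1-proficient library. A pair of the genes chosen above was nearly silent without OGG1 and uneven among the clones with it. PTPRN2, a phosphatase-like protein of secretory vesicles, had 78, 278, 4 and 206 counts in the proficient libraries and 0, 3, 0 and 0 without OGG1. PXDN, the peroxidasin that cross-links collagen IV, had 329, 34, 2 and 31 counts against 2, 0, 1 and 0. MUTYH clone 7 was at 4 counts for PTPRN2, hardly above the OGG1-lacking libraries. For PXDN it had 2 counts, the same as OGG1 clone 1. The PXDN sets were separate only after scaling to library size (0.0931 against 0.0913 CPM). Summed over each set, PTPRN2 was 189 times higher with OGG1 (95% exact interval 64.3 to 919) and PXDN 132 times (44.9 to 644). Without the highest library of each, WT clone 11 for PTPRN2 and WT clone 2 for PXDN, the ratios were 128 (43.5 to 627) and 29.9 (9.81 to 149). Both genes were chosen for sets that do not overlap in CPM. A count of 0 allows up to 3 counts, or 0.132 to 0.14 CPM by library, and these intervals cover counting error only.

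SLIT3, a secreted guidance ligand, was at 6.34, 4.99, 1.44 and 3.3 CPM with OGG1 and at 0.868, 0.31, 0.771 and 0.879 CPM without (-2.38 ± 0.49). CHST15, which sulfates chondroitin, was at 1.25 to 7.09 CPM with OGG1 and 0.0913 to 1.23 CPM without (-2.71 ± 0.61), so that its sets nearly touched. PCSK5, a proprotein convertase, was at 4.04 to 8.52 CPM and 1.95 to 3.69 CPM (-1.35 ± 0.27, and -0.929 on side A alone, where it was not called). The transcription factors PRDM16 and MAF were lower by 2.12 and 2.72 on the log2 scale. MAF was at 6.17 to 21.8 CPM with OGG1, at 2.47 and 2.86 CPM in OGG1 clone 1 and DKO clone 4, and at 0.664 and 0.22 CPM in OGG1 clone 22 and DKO clone 14. These levels of MAF in the OGG1-lacking set followed the sides of the split. PRDM16 was not called on side B alone (-1.71).

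A guanine-rich stretch that could fold into a G-quadruplex was looked for in the 250 bases upstream of each RefSeq gene start. 8-oxoguanine in such stretches is a proposed link between OGG1 and transcription. The motif was 4 or more runs of at least 3 G, each run separated by 1 to 7 bases of any kind, on either strand. A separating base could itself be G, so a long stretch of G, such as the first in SLIT3, can count as more than 1 run. Of the 24 genes chosen above, 16 had a RefSeq promoter (GRCh38.p14), and 6 of these held the motif, CREB3L1 and EPS8L2 among the higher and KIT, MGMT, PCSK5 and SLIT3 among the lower genes. Among tested genes with a RefSeq promoter 4645 of 11560 (40.2%) held it, close to the 6 of 16, and among all 27303 promoters 26.3% did. FRMD4A, GDF15, POSTN and OGG1 itself had a promoter in the table and no match in this window. The share over all DEGs is not given, because fewer than 80% of them had a promoter in the table. The motifs of KIT, CREB3L1 and EPS8L2 lie within the gene as placed by GENCODE, and that of MGMT spans the GENCODE start. The stretches of PCSK5 and SLIT3 lie upstream of the annotated gene and are shown as examples with the G runs in capitals.

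PCSK5, chr9:75890599-75890638, plus strand: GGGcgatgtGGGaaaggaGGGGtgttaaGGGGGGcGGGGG

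SLIT3, chr5:169301168-169301189, minus strand: GGGGGGGGGccggaGGGGtGGG

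Such a match describes letters in a window and does not mark a bound site.

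Repair and stress pathways showed few DEGs as groups. Over all tested genes 0.979% were higher and 0.419% lower DEGs, shares that belong beside the counts of every list below. The list of base excision repair and nucleotide pool enzymes had 33 tested members, of which none was a DEG, and its median log2 fold change was -0.0256, against 0.0026 over all tested genes. FEN1, the flap endonuclease of long-patch repair, was the one member with an unadjusted P of at most 0.05 (-0.25 ± 0.1). Other glycosylases stood close to 0, with NEIL1 at -0.03 ± 0.2, NEIL2 at 0.04 ± 0.26, NEIL3 at -0.09 ± 0.15 and NTHL1 at -0.12 ± 0.11. NUDT1, which clears oxidized dGTP from the nucleotide pool, was at 0 ± 0.2. Of 13 mismatch and direct repair genes 1 was lower, MGMT, and the median was -0.0481.

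Of 29 NRF2 targets none was a DEG (median 0.0255, but -0.0725 without OGG1 clone 22), and HMOX1, the haem oxygenase induced by oxidants, differed by 0.15 ± 0.15. GCLC, the catalytic subunit of glutathione synthesis, was the one NRF2 target with an unadjusted P of at most 0.05 (-0.29 ± 0.09). One of 22 p53 targets was higher, GDF15 (median 0.058), while CDKN1A, the p53-induced inhibitor of the cell cycle, differed by 0.09 ± 0.52. In the ATF4 list of the integrated stress response, 2 of 24 were higher, INHBE and GDF15 (median 0.143), where 0.979% of all tested genes were. The factor itself, ATF4, differed by 0 ± 0.14, its partner DDIT3 by 0.3 ± 0.17 and its target ASNS by 0.36 ± 0.32, none of which was called.

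Proliferation, hypoxia and mitochondrial lists had no DEG. The 28 replication genes had a median of -0.0589 with 7 above 0, and the 26 mitotic genes a median of -0.0617 with 8 above 0. Each list had 1 member with an unadjusted P of at most 0.05, RRM2, a subunit of ribonucleotide reductase (-0.34 ± 0.12), and KIF11, a spindle kinesin (-0.35 ± 0.1), both short of the fold threshold. All 15 mitochondrially encoded genes had estimates above 0, with a median of 0.188 and a largest value of 0.357, and none had a P of at most 0.05. These 15 genes share 1 transcription unit per strand and move with the mitochondrial share of a library, which ranged from 4.25% to 7.46% among the OGG1-lacking libraries. The 29 hypoxia and glycolysis genes had a median of -0.00108.

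In the interferon and DNA sensing list 2 of 22 genes were higher, where 0.979% of all tested genes were. Of the 22, 14 had estimates above 0. OAS3 was lower with an unadjusted P of at most 0.05, short of the fold threshold (-0.521 ± 0.215). The list median was 0.203 and ranged from 0.0727 (without WT clone 2) to 0.229 over the alternatives, with 0.0752 at a minimum of 10 counts in every library, 0.0913 without OGG1 clone 22 and 0.109 on side B. IFITM1, a membrane protein that restricts virus entry, was at 3.02, 1.56, 1.07 and 1.28 CPM with OGG1 and at 3.38, 4.2, 3.22 and 3.34 CPM without it. WT clone 2 was close below the OGG1-lacking range, and the other proficient clones were lower. Its log2 fold change of 1.09 ± 0.28 fell short of the call without WT clone 11 (0.983) or MUTYH clone 7 (0.956) and on side A alone (0.913). IFIT2 was higher by 1.22 ± 0.4, with at most 35 counts in any library, and was not called without OGG1 clone 22 (1.05, an unadjusted P just above the threshold) or DKO clone 14 (0.918), nor on side B alone (0.276, against 2.1 on side A). IFITM1 has close paralogs, between which the counting could have split reads.

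Among 15 NF-kB targets VCAM1 was lower (-2.79 ± 0.55), at no more than 1.1 CPM in any library (median of the list 0.24). Of these 15, 12 had estimates above 0. NFKB2 was higher with an unadjusted P of at most 0.05, short of the fold threshold (0.51 ± 0.183). Of all tested genes 0.419% were lower and 0.979% higher DEGs. Axon guidance and protocadherin genes had 1 of 34 lower, SLIT3 (median -0.0893, and -0.274 to 0.0706 over the alternatives), and extracellular matrix genes had 0 DEGs among 27 (median 0.164, and -0.114 to 0.494). Of the 6 tested haematopoietic markers CD34 was higher (2.09 ± 0.41) and KIT lower (median -0.158). Of 11 epithelial and mesenchymal markers, EPCAM and KRT8 were higher (median 0.07). KRT8, a keratin of simple epithelia, was at 8.47, 17.6, 30 and 8.81 CPM with OGG1 and at 37.8, 45.2, 43.3 and 44 CPM without it. The OGG1-lacking clones were close together, whereas the proficient clones spread by the sides of the split, with both side A clones lowest. The log2 fold change of KRT8 was 1.42 ± 0.38, 2.37 on side A and 0.818 on side B. KRT18, its partner keratin, which overlaps it on the opposite strand, differed by 0.42 ± 0.16. VIM, the mesenchymal filament protein vimentin, differed by 0.07 ± 0.23.

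**Figure D4:**
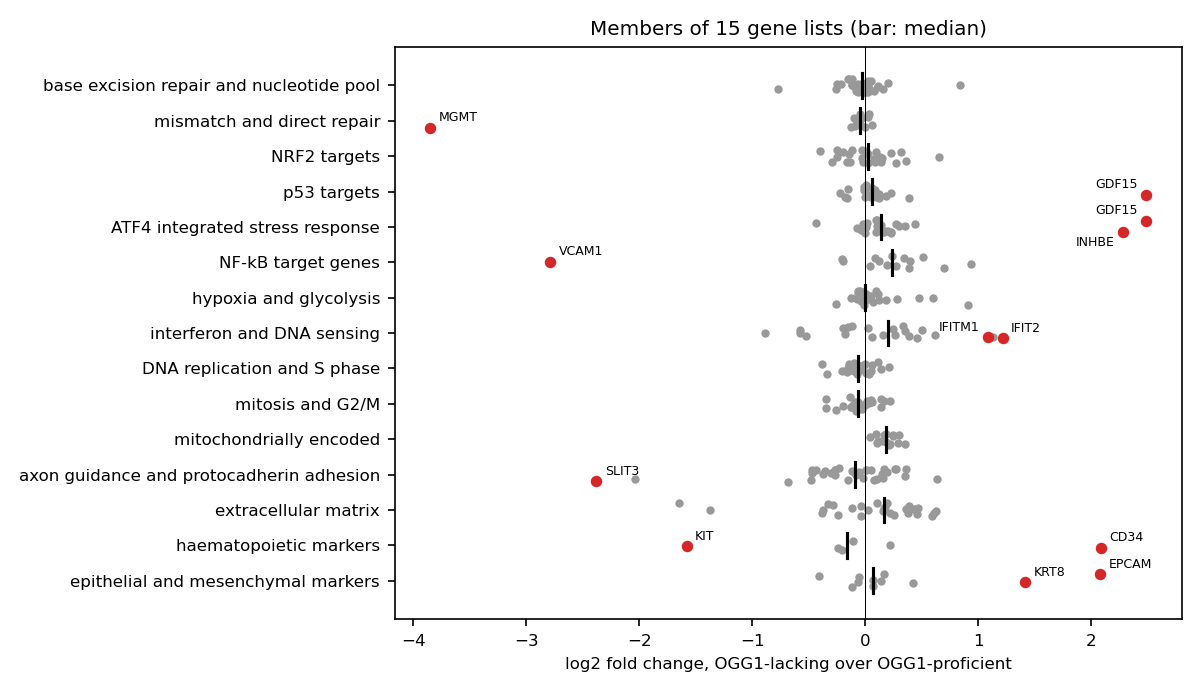
Points give the log2 fold change (OGG1-lacking over OGG1-proficient, horizontal axis) of each tested member of 15 gene lists, with DEGs in red and named and a black bar at each list's median. Medians lay between -0.158 and 0.24, and no list had more than 2 DEGs.

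The OGG1 difference was next taken apart by MUTYH status. The OGG1 knockout against WT gave 299 DEGs (1.67%), 145 of them higher, and DKO against the MUTYH knockout gave 355 (1.99%), 267 of them higher. These comparisons share no library. They had 51 DEGs in common, 17.1% of the former and 14.4% of the latter list, and 36 of the 51 went the same way, 24 higher and 12 lower. The 36 included 15 of the genes named above, among them FRMD4A (-2.5 and -3.32), POSTN (3.59 and 3.06), EYA1 (2.15 and 3.88) and SLIT3 (-3.26 and -1.52), in the order OGG1 knockout and DKO. Most named genes were chosen for a small P and separate sets in these same libraries. Their shared direction was therefore largely fixed by that choice and is no separate support. The other 15 of the 51 went opposite ways. Across 17881 genes the log2 fold changes had a Pearson r of 0.112, which describes genes and not independent replicates.

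**Figure D5:**
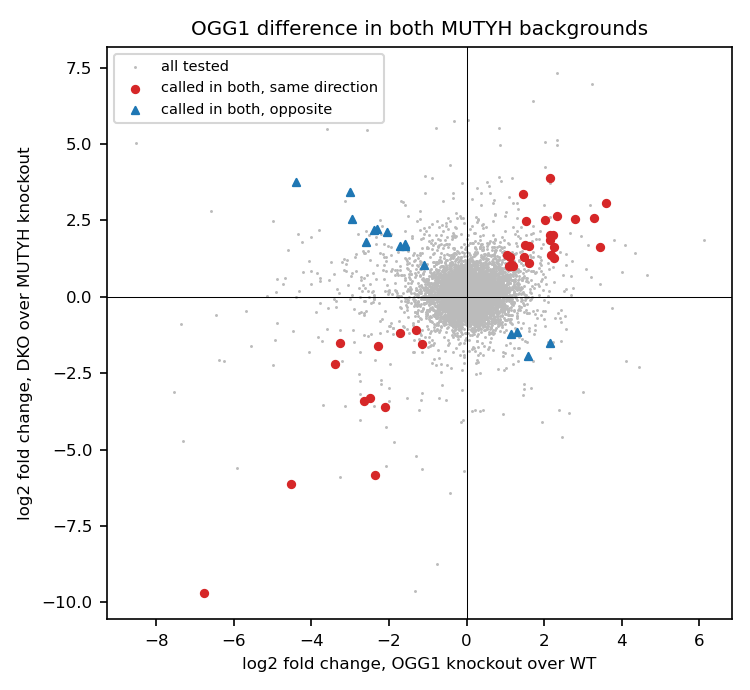
Each point is a tested gene, with the log2 fold change of the OGG1 knockout over WT on the horizontal axis and that of DKO over the MUTYH knockout on the vertical axis. Of the 51 DEGs in both, 36 (red circles) lie in the same-direction quadrants and 15 (blue triangles) in the opposite ones.

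OGG1 clones 1 and 22 differed in how far they shared the DKO pattern. Among the 267 genes higher in DKO than in the MUTYH knockout, the median log2 difference from WT was 0.056 in clone 1 and 0.29 in clone 22, and 10.9% and 23.2% were beyond 1. Over all tested genes the shares beyond 1 were 2.93% and 3.79%. Among the 88 genes lower in DKO the medians were 0.0241 and -0.785, with 23.9% and 39.8% beyond 1 against 2.52% and 4.44% of all tested genes. Thus clone 22, from which the DKO clones were derived, had medians further in the DKO direction than clone 1, although DKO and clone 22 were set against different controls. Both clones were compared with the same 2 WT libraries, and the difference between the clones was not tested. Correlations of single clone pairs did not follow the sides of the split uniformly. OGG1 clone 22 minus WT clone 2 had an r of 0.289 with DKO clone 14 minus MUTYH clone 8, all on side A. Its r was -0.153 with DKO clone 4 minus MUTYH clone 7 on side B. OGG1 clone 1 minus WT clone 11, on side B, went the other way. The r was -0.0947 with DKO clone 4 minus MUTYH clone 7 and 0.14 with DKO clone 14 minus MUTYH clone 8.

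When OGG1 clone 1 was left out, so that the OGG1-lacking set held clone 22 and its derivatives alone, 343 genes were DEGs and 3 passed BH adjustment. These were FRMD4A and 2 genes outside the rule for named genes, given here after their values were seen. S100A6, a calcium-binding protein, was at 5.77, 8.77, 11.5 and 12.7 CPM with OGG1 and at 8.54 CPM in OGG1 clone 1. It was at 0.0442, 0.0453 and 0 CPM in OGG1 clone 22 and DKO clones 4 and 14, or 2 counts in all. HOXC11, a homeobox factor, was at 0.396 to 1.07 CPM with OGG1 and at 0.0457 CPM in OGG1 clone 1, but at 8.14, 7.89 and 7.96 CPM in clone 22 and the DKO clones. In both genes OGG1 clone 1 was on the side of the proficient clones while lacking OGG1 by its label, and the 3 libraries of clone 22's lineage were alike. Without clone 1, edgeR gave adjusted p-values of 0.00639 for S100A6 and 0.0237 for HOXC11. Loss of OGG1 and descent from clone 22 cannot be told apart in those libraries, and clone 1 was the only library of the other lineage for every gene.

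Finally, 358 genes (2%) had an OGG1 difference that depended on MUTYH status by the same criterion, 252 with a more positive and 106 with a more negative difference in MUTYH-lacking cells. The contrast tested was DKO minus MUTYH knockout, less OGG1 knockout minus WT. One gene passed BH adjustment, and 469 had an unadjusted P of at most 0.05. Of these 358, 21 were also DEGs for OGG1, 8.4% of the 250 and 5.87% of the 358.

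THSD7B (chr2:136765545-137677718), a thrombospondin-domain membrane protein, was that gene. It was at 10.1 and 8.51 CPM in WT, 0.233 and 0.22 in the MUTYH knockout, 4.61 and 6.06 in the OGG1 knockout and 11.5 and 9.63 CPM in DKO. The MUTYH knockout clones alone were low, and DKO was at the level of WT. The contrast was 6.31 ± 0.43 on the log2 scale (BH adjusted p = 0.0179 by edgeR). When any 1 of the 8 libraries was left out, or with 10 counts required in every library, no gene passed adjustment for this contrast. LBX1-AS1, a long non-coding RNA, had the same form, with 0 and 0.352 CPM in the MUTYH knockout and 7.95 to 10.8 CPM in the other 6 libraries (5.74 ± 0.94). For both, the OGG1 contrast within MUTYH-lacking cells rests on the low level of the MUTYH knockout clones.

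EGR1, an immediate early transcription factor, was at 13.4 and 10.6 CPM in WT, 3.49 and 4.45 in the MUTYH knockout, 6.81 and 7.61 in the OGG1 knockout and 15.9 and 13.7 CPM in DKO. Each single knockout was below WT while the DKO was not (2.63 ± 0.34). MET, the receptor of hepatocyte growth factor, was at 54 and 61.9 CPM in WT and 56.1 and 57.8 in the MUTYH knockout. It was lower in the OGG1 knockout, at 41.3 and 37.6 CPM, and higher in DKO, at 89.3 and 105 CPM (1.33 ± 0.21). Averaged over MUTYH status, neither was a DEG for OGG1, with 0.56 ± 0.52 for EGR1 and 0.11 ± 0.25 for MET. Neither contrast passed BH adjustment in edgeR, with values of 0.811 for EGR1 and 1 for MET.

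Chromosome medians of the log2 fold change were -0.0348 to 0.0363. Of 291 windows of 10 Mb with at least 10 tested genes, 1 had a median beyond 0.2 in either direction, at chromosome 1 from 190 to 200 Mb (-0.202). The sets overlapped in that window. WT clone 2 was the highest of the 8 libraries in all 10 windows of chromosome 1 from 150 to 250 Mb, with medians 0.18 to 0.267 (log2) above the mean of the proficient libraries, and the log2 fold change for OGG1 was below 0 in 9 of them (-0.202 to 0.0126). The part of this library in results on that arm was not tested.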

How the data were processed

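RNA-seq counts per gene of 8 untreated HAP1 libraries were used. The authors isolated RNA with antioxidants, sequenced it on a DNBseq platform, aligned reads to GRCh38 with HISAT2 2.2.1 and made the deposited counts with Rsubread's featureCounts and the Ensembl gene models. The submitters' processing notes also name FastQC 0.11.9, R 4.2.2 and edgeR 3.42.4. The deposited counts were whole numbers, not normalized. How reads with several alignments were counted is not given in the sources used here. The table of H2O2-treated WT clones was not used.

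Tests across genes were run with edgeR 4.0.16 under R 4.3.3 (TMM factors of 0.96 to 1.02, filterByExpr by genotype, quasi-likelihood F test with legacy=TRUE, two-sided). The OGG1 comparison used an additive design with MUTYH status (5 residual degrees of freedom), and the other contrasts a 4-group fit (4 residual degrees of freedom). Standard errors (SE) were derived from the F statistic. Library measures used an exact permutation test. No 2 libraries agreed within counting error (chi-square per degree of freedom of at least 10.9). The scripts were tested on simulated data.

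The named genes were OGG1, MUTYH and overlapping genes; genes past BH adjustment; the 12 DEGs per direction with the smallest P, no overlap between sets and a mean of at least 1 CPM in either set; up to 4 DEGs per list at that level; and the 4 interaction genes with the smallest P. One gene that these criteria selected is left out of the text and plots. Members, lists and tests were chosen with earlier results of these data known. Positions came from GENCODE v44 by symbol, a release other than the one used for counting. Alternatives were other size factors, DESeq2 1.42.0, edgeR's legacy=FALSE, other filters and covariates, the split as a block or by side, and each library left out. Correlations of log2 CPM differences and of single clone pairs were added after seeing the data.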

Additional observations from a re-analysis of the deposited data

Results flagged for a closer look

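In 6 of 76 sets of 4 libraries checked, 1 library stood far from the other three by Dixon's criterion, which chance alone gives in about 1 of 20 sets. OGG1 in OGG1 knockout clone 1 was at 1.23 CPM, against 9.75 to 11.2 CPM in the other OGG1-lacking libraries. CAMK1, which overlaps OGG1, was at 0.499 CPM in DKO clone 4 against 0.044 to 0.0885 CPM in the rest of its set, and at 0.838 CPM in MUTYH clone 7 against 0.222 to 0.312 CPM. PTPRN2 was at 0.133 CPM in OGG1 clone 22, where the other OGG1-lacking libraries had 0 counts. PXDN was at 14.6 CPM in WT clone 2 against 0.0931 to 1.51 CPM in the other proficient libraries. IFITM1 was at 4.2 CPM in OGG1 clone 22 against 3.22 to 3.38 CPM.

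For 7 named genes the OGG1 difference differed by MUTYH status by the test of that difference. The contrasts were 6.31 for THSD7B, 5.74 for LBX1-AS1, 2.63 for EGR1, 1.93 for GDF15, 1.33 for MET, -2.01 for PRDM16 and -3.48 for MGMT on the log2 scale. THSD7B alone of these passed BH adjustment in edgeR (adjusted p = 0.0179), and no gene did when any single library was left out.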

How the results depend on the processing

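Of 36 named genes 33 kept their direction in every alternative that gave a value, and 17 of the 27 DEGs stayed DEGs. Most named genes were chosen for a small P and separate sets in these same libraries. Their kept direction was therefore largely fixed by that choice and is no separate support. Estimates near 0 changed sign: MUTYH (0.25 on side B, and -0.301 to 0.116 with a library left out), TADA3 (0.0112 on side A) and MET (-0.0669 to 0.3 with a library left out). The 250 OGG1 DEGs (175 higher, 75 lower) became 631 (385, 246) with no filter, 60 (39, 21) with 10 counts in every library and 597 (311, 286) on side A, where 52.1% were higher against 70% in the fit reported; side B gave 213 with 48 lower and 77.5% higher. Leaving out libraries gave 201 to 360 DEGs, 141 to 217 higher and 55 to 153 lower (153 without MUTYH clone 7, 126 without OGG1 clone 1); genes past BH adjustment numbered 0 to 3, 0 on either side and 39 by DESeq2. The 358 interaction genes (252 positive, 106 negative) became 719 (473, 246) with no filter, 218 (144 positive, 0 past adjustment) with 10 counts and 567 (196 negative) with the split as a block; DESeq2 left 21 past adjustment. Leaving out libraries gave 193 (without WT clone 2) to 725 (without WT clone 11), 127 to 440 positive and 66 to 351 negative, with 622 without MUTYH clone 8 and 0 past adjustment in each case. OGG1 knockout against WT gave 692 and 123 DEGs by filter and 139 to 671 by library left out (139 without WT clone 2, 671 without WT clone 11, 550 without OGG1 clone 1), and DKO against MUTYH knockout 669 and 151 by filter. The r between them was -0.157 (without MUTYH clone 8) to 0.242. The difference in OGG1 level was -6.47 to -3.14 CPM and that in genes with at least 10 counts 106 to 235 with a library left out. The cause of these changes was not tested.

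No paired analysis was possible because the 4 genotypes share no clone number in the labels. With the split found in the data as a block instead, 292 genes were DEGs and 1604 had an unadjusted P of at most 0.05. That block was taken from the same counts as the largest part of their variance within genotypes. P-values with it therefore tend to be too small. The main limits are 1 lineage behind 3 of the 4 OGG1-lacking libraries, a split of the libraries that the labels do not explain, and about 22.2 counts at 1 CPM, the level near which most DEGs lay.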

Other observations

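Some genes with higher levels separated the sets by less than the fold threshold, and these were chosen after their values were seen, among the 39 genes past adjustment in DESeq2. LMNA, which codes for the nuclear lamins A and C, was at 203, 169, 198 and 183 CPM in WT clones 2 and 11 and MUTYH clones 7 and 8. In OGG1 clones 1 and 22 and DKO clones 4 and 14 it was at 145, 140, 147 and 140 CPM (DESeq2 log2 fold change -0.397, adjusted p = 0.0389). RORA, a nuclear receptor, was at 29.7 to 34.9 CPM with OGG1 and at 19.9, 20.5, 21.9 and 16.3 CPM without it (DESeq2 log2 fold change -0.666, adjusted p = 0.00533). WHRN, the scaffold protein whirlin, was at 7.22 to 9.71 CPM with OGG1 and 11.9 to 14.9 CPM without it (0.688, adjusted p = 0.00384 by DESeq2). PAK3, a kinase of the actin cytoskeleton, was at 18 to 25.9 CPM and 9.11 to 13.7 CPM (-0.837, adjusted p = 0.0136 by DESeq2). The sets do not overlap in these 4 genes because they were chosen so. LMNA lies on the arm of chromosome 1 where WT clone 2 was high. None of the 4 passed BH adjustment in edgeR. Of the 39 genes, 34 had sets that did not overlap, 30 were DEGs in edgeR and 22 were named by the rule.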
